A study of Arabidopsis thaliana with 8 samples.

Results

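Wild-type Arabidopsis thaliana seedlings germinating on abscisic acid (ABA) were compared with wild-type seedlings germinating without it, over all 22246 probe sets of an oligonucleotide array. The comparison uses 4 of the 8 arrays of the series: 2 of Columbia wild type on 0.5 uM ABA and 2 of Columbia wild type without ABA, chosen by their titles. Seeds of both groups were chilled for 4 days at 4 °C and then germinated for 2 days at 23 °C in cycles of 16 h light and 8 h dark. The medium was MS with 2% sucrose. The other 4 arrays hold the mutants ahg1-1 and ahg3-1 on the same ABA medium. In the fit with all 8 arrays they entered only the estimate of the spread. In fits without 1 wild-type array they also helped estimate the difference between replicate numbers, and so the change. Values are log2 expression, 1 per probe set and array, and a change is the value with ABA minus the value without it. ABA slows germination, and both groups had germinated for equally long, so the direct response of a gene and a less advanced seedling cannot be told apart. In RNA from whole seedlings, fewer cells of a type and less RNA per cell cannot be told apart either.

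ABA is the plant hormone that holds seeds in dormancy and stops germination under stress. During seed maturation it turns on, through bZIP and B3 transcription factors, genes for late embryogenesis abundant (LEA) proteins, which protect membranes and proteins in the dry seed, and genes for storage proteins and the proteins that coat oil bodies. During germination this programme is shut off, reserves are broken down, cell walls loosen, and in the light chloroplasts with their photosynthetic machinery develop from the plastids of the embryo.

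The arrays of each group carry the replicate numbers 1 and 2, and the numbers differed by about as much as the treatments did. Across probe sets the first array without ABA correlated with r = 0.950 with its replicate and with r = 0.946 with the first array on ABA. The arrays on ABA correlated with r = 0.927 with each other, and the second of them with r = 0.996 with the second ahg3-1 array. The number was fitted as a block, a choice set in advance, and changes within each number are given beside the results. The titles do not say what arrays of the same number share. Array medians lay between 5.91 and 5.97 over the 8 arrays.

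In all, 2799 of 22246 probe sets (12.6%) passed limma's test with the number as a block at an adjusted p below 0.05. ABA raised 1358 of them (6.10%) and lowered 1441 (6.48%). Rises had a median log2 change of 0.94 and falls one of -1.19, so that 597 rises and 945 falls reached 1 and 95 rises and 85 falls reached 3. Each of these 2799 had the same sign within both numbers. Without the block 305 were called (1.37%), 154 higher (0.692%) and 151 lower (0.679%), and all 305 were among the 2799. With loci in place of probe sets, 1425 of 12915 (11.0%) were called, 737 higher (5.71%) and 688 lower (5.33%), and the median change over these loci was 0.064. Without the block 1.25% of loci were called, 0.681% higher and 0.573% lower. The groups did not overlap for 32.7% of all probe sets. These shares are the background against which the gene groups below are read. The groups were chosen with earlier results of these data known, so setting them beside these shares describes them and is no test.

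**Figure D1:**
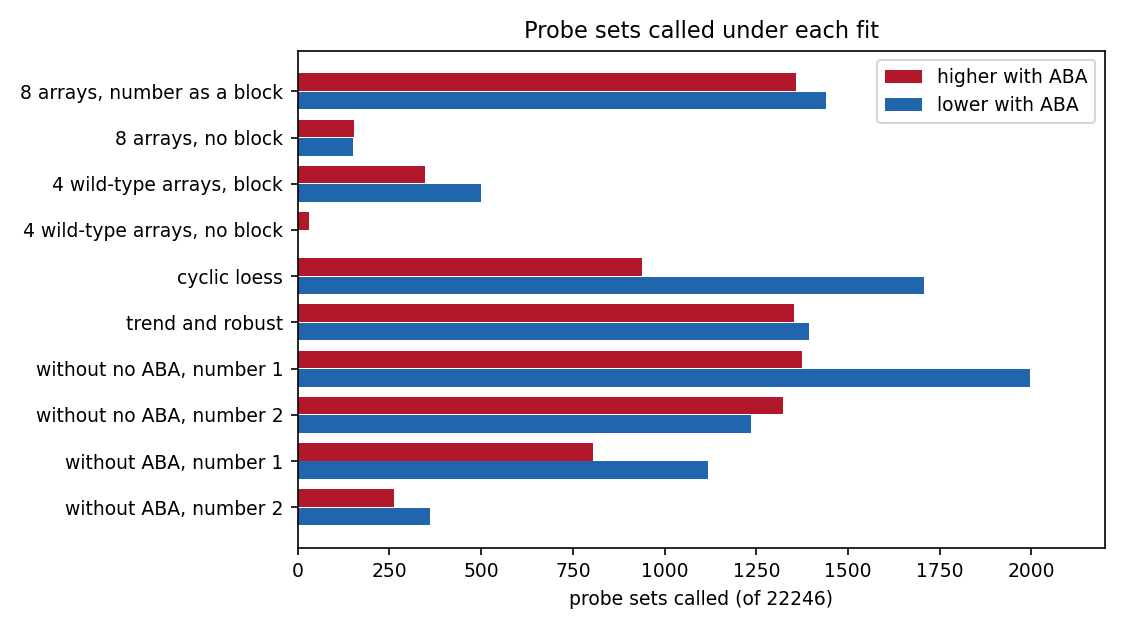
Probe sets called higher (red) and lower (blue) with ABA at an adjusted p below 0.05, for the fit reported here (top) and for 9 alternatives. Bars run from 154 higher and 151 lower without the block, and 262 and 361 without the second array on ABA, to 1376 and 1996 without the first array without ABA, and 32 and 1 are called with the 4 wild-type arrays and no block.

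The plot of calls by fit shows how far these counts rest on the design. With only the 4 wild-type arrays and the block, 845 probe sets were called, 346 higher and 499 lower. Cyclic loess shifted the split towards falls, to 938 higher and 1708 lower. The second array on ABA had the largest part of any wild-type array: 623 probe sets were called without it, against 1922 to 3372 without 1 of the other wild-type arrays. The count was 1767 without either ahg3-1 array.

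Change within number 2 was wider than within number 1. Its SD over all probe sets was 0.839 in number 2 and 0.630 in number 1, and 777 against 348 probe sets differed by at least 2. With 1 array per group and number, whether the response itself differs between the numbers was not tested.

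Among probe sets with 1 gene, the 3 with the largest rises encode proteins of families known from the dry seed. AT1G04560, an AWPM-19-like membrane protein gene, stood at 5.27 and 5.66 on the arrays without ABA and at 12.04 and 12.51 on those with it. AT2G28490, a vicilin-like storage protein, stood at 4.71 and 5.08 without and at 10.84 and 12.40 with ABA. AT3G17520, an LEA gene, went from 4.41 and 5.32 to 10.89 and 12.19. In all 3 both arrays with ABA stood far above both without it. Absence of overlap between the groups was part of the rule that chose these genes. Their changes were 6.80 ± 0.18, 6.73 ± 0.32 and 6.67 ± 0.25 (SE), with adjusted p of 8.8e-06, 6.6e-05 and 3.1e-05 (limma), and the change of AT3G17520 is 102-fold. The other measured AWPM-19-like genes, AT5G18970 and AT1G29520, differed by 0.09 ± 0.24 and -0.38 ± 0.29 and did not pass.

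**Figure D2:**
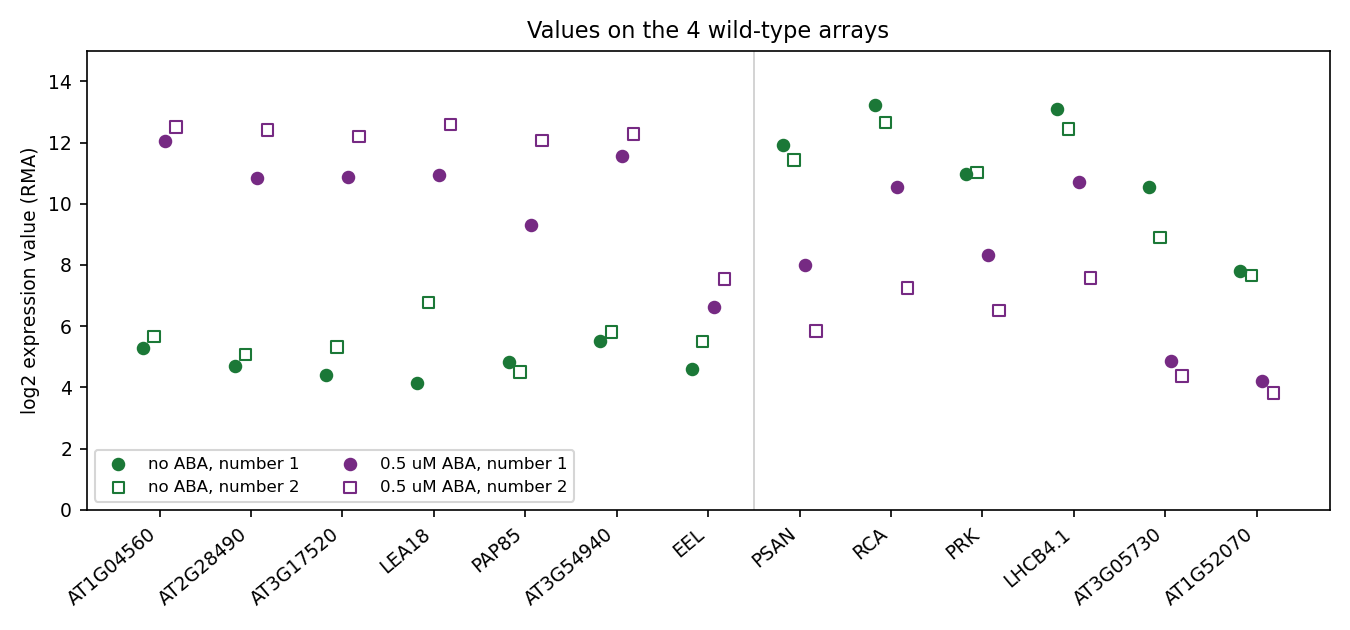
Log2 expression of 13 genes on the 4 wild-type arrays. Green marks arrays without ABA, purple those on 0.5 uM ABA, filled circles are number 1 and open squares number 2. For the 7 genes on the left the arrays on ABA lie above those without, and for the 6 on the right below, with PSAN, RCA, PRK and LHCB4.1 lower on the second array on ABA than on the first.

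LEA proteins and dehydrins were the largest group to rise. Of 36 measured loci 21 rose and 0 fell, against a background of 5.71% and 5.33% of loci, and the median change was 2.81, at 1.96 within number 1 and 3.36 within number 2. Membership of loci without a symbol was assigned from the published Arabidopsis families, not from the tables used here. The list was made with earlier results of these data known, so its count describes it and tests nothing. LEA18 stood at 4.14 and 6.77 without ABA and at 10.93 and 12.60 with it. AT4G36600 went from 4.43 and 4.68 to 9.64 and 11.95, and AT4G21020 from 3.89 and 4.84 to 9.75 and 11.19. In each of these LEA genes both arrays with ABA lay far above both without it, although LEA18 also differed clearly between the arrays without ABA. Changes were 6.31 ± 0.41, 6.24 ± 0.41 and 6.10 ± 0.19, with adjusted p between 1.5e-05 and 0.00022. AT3G15670, LEA, AtLEA4-1, AT1G72100, AT5G44310 and LEA4-5 followed with changes between 5.66 and 5.94.

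Other LEA genes rose by less, and several of them more within number 2. AT2G42560 changed by 2.07 within number 1 and by 4.94 within number 2. For AT3G22490 the changes were 1.83 and 4.55, and for the dehydrin AT4G39130 they were 2.30 and 4.71. M17, by contrast, changed by 4.58 and 4.45, and AT3G02480 by 5.46 and 4.53, so these LEA genes do not share the pattern. The smallest called rises were those of DI21 (2.43 ± 0.25), LTI30 (1.99 ± 0.24) and COR15A (1.11 ± 0.20). LTI30 is a dehydrin of cold and drought and COR15A a cold-regulated LEA protein of the chloroplast. Of 6 genes listed as cold and ABA induced, LTI30 and COR15A were the 2 that rose, 0 fell and 4 did not pass. The median of the 6 was -0.0046, and neither rise was called without the block.

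Another 15 LEA and dehydrin loci did not pass, with changes from -1.16 to 0.88 and adjusted p from 0.085 to 0.95. The dehydrin COR47 stood at 8.60 and 9.93 without ABA and at 8.83 and 7.37 with it, so that its change was 0.24 within number 1 and -2.56 within number 2. AT1G54410, also of the dehydrin family, had 7.57 and 10.76 without ABA and 9.28 and 10.46 with it. In both genes the groups overlapped. M10 differed by 0.92 and 0.85 within the numbers, a change of 0.88 ± 0.28 (adjusted p = 0.086). Without the block 15 of the 36 were called, all higher, and between 19 and 24 were called when 1 array was left out.

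Storage and oil body genes moved with the LEA genes. Of 9 measured loci 7 rose and 0 fell, with a median change of 5.36, at 4.48 within number 1 and 5.53 within number 2. PAP85, a vicilin-like storage protein, stood at 4.84 and 4.51 without ABA and at 9.32 and 12.06 with it, a change of 6.01 ± 0.60 (adjusted p = 0.0014). The oleosin AT3G01570, of the oil body surface, went from 6.61 and 6.0 to 12 and 12.31, and the oleosin AT2G25890 from 5.33 and 5.06 to 10.08 and 11.32. The groups were far apart in all 3, and the arrays on ABA differed most for PAP85. AT3G18570 changed by 4.34 and 4.32 within the numbers and AT4G36700 by 4.1 and 4.28. AT2G18540 stood below each array's 20th percentile on all 4 arrays and did not pass (adjusted p = 0.099). The count of 7 was the same without the block and without each array in turn.

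In number 2 the arrays on ABA stood higher for the seed genes than in number 1. The LEA group was higher on the second array on ABA than on the first by a median of 1.11, and the storage group by 0.73. Without ABA the second array differed from the first by a median of 0.43 for the LEA group and by -0.12 for the storage group. Over all probe sets the corresponding medians were -0.060 and -0.086.

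Enzymes that process storage proteins stood on both sides. BETA-VPE, a vacuolar processing enzyme of seeds that cleaves storage proteins, went from 6.34 and 7.39 without ABA to 9.85 and 10.92 with it. Its change of 3.52 ± 0.17, an 11.5-fold rise, was nearly equal in both numbers (3.51 and 3.52; limma, adjusted p = 7.0e-05). DELTA-VPE, of the seed coat, rose by 1.64 ± 0.37 and GAMMA-VPE, the vegetative form, fell by 0.91, while ALPHA-VPE differed by -0.21 and did not pass. Only the call of BETA-VPE held without the block, without the second array on ABA or without the second array without ABA. The papain-type cysteine protease gene AT3G54940 stood at 5.51 and 5.81 without ABA and at 11.56 and 12.28 with it, a change of 6.26 ± 0.20. The cysteine protease CP1 had 7.47 and 10.43 without ABA and 8.33 and 10.42 with it, so that number 2 was higher than number 1 in both groups and the groups overlapped.

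Genes of the plastid envelope and of starch rose as well, and beta-glucosidases moved in both directions. ATOEP16-2, the seed form of a channel of the outer plastid envelope, went from 4.93 and 5.17 to 9.68 and 11.58, a 47.9-fold rise, while its relatives ATOEP16-4 and OEP16-3 rose by 0.95 ± 0.15 and 0.61 ± 0.16. APL3 and APL4, large subunits of the ADP-glucose pyrophosphorylase of starch synthesis, rose by 2.41 ± 0.35 and 1.31 ± 0.23. DPE1, a plastid enzyme that converts the maltotriose of starch breakdown, rose by 1.19 ± 0.21, while the amylase gene AMY1 differed by 0.31 ± 0.15 and did not pass. Of 22 beta-glucosidase and myrosinase genes 3 rose and 1 fell, beside 5.71% and 5.33% of all loci, with a median of -0.06. BGLU19, a beta-glucosidase, went from 5.65 and 5.28 to 8.86 and 9.61, a change of 3.77 ± 0.27 (limma, adjusted p = 0.00034). BGLU25 and BGLU44 rose by 1.27 ± 0.24 and 0.91 ± 0.23, and BGLU16 went from 8.20 and 7.84 to 6.89 and 6.23, a change of -1.46 ± 0.17. The count of called beta-glucosidases was 7 without the first array without ABA, and 2 without the second array of either group. Of the genes in this paragraph ATOEP16-2 and BGLU19 were also called without the block. Without the second array on ABA the calls of APL3, APL4, DPE1 and ATOEP16-4 were lost, and that of OEP16-3 was lost without any single wild-type array.

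Of the regulators, EEL, a bZIP factor that binds promoters of LEA genes in maturing seeds, stood at 4.61 and 5.51 without ABA and at 6.62 and 7.54 with it. The second array was the higher one in each group, and the groups did not overlap. Its change was 2.0 within number 1 and 2.03 within number 2, or 2.02 ± 0.18 (limma, adjusted p = 0.00092, or 0.098 without the block). BZIP60, a factor of the unfolded protein response, rose by 1.12 ± 0.17. Of 20 measured bZIP genes these 2 passed, beside 11.0% called over all loci, and the median of the 20 was -0.03. None of the 20 was called without the block, where limma's unadjusted p lay below 0.05 for 2, while 1 was called without the second array on ABA and 4 without the second array without ABA. HIS1-3, a linker histone known to respond to drought and ABA, went from 4.88 and 4.86 to 6.29 and 7.91, a change of 2.23 ± 0.35 that was not called without the second array on ABA, while the other measured histone genes lay between -0.62 and 0.24.

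**Figure D3:**
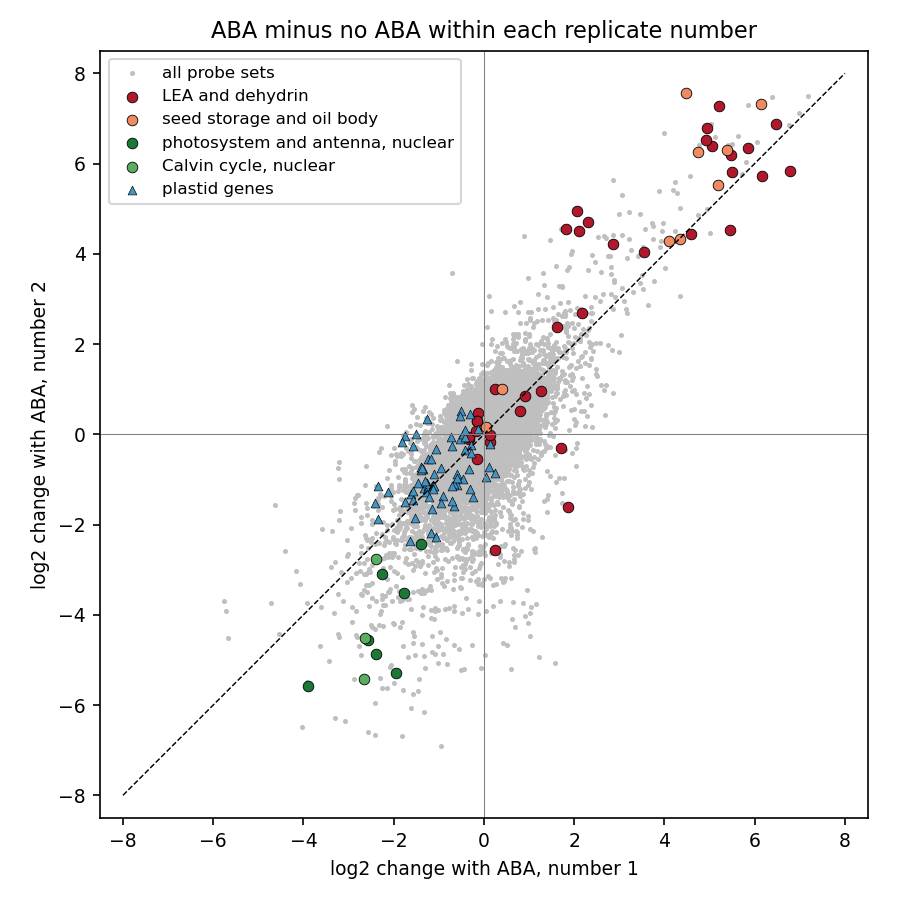
Log2 change with ABA within number 1 (horizontal) against number 2 (vertical) for all probe sets (grey) and for members of 5 gene groups, with the line of equal change dashed. Nuclear photosystem and antenna genes have medians of -2.25 and -4.55 in the numbers and lie below the line, while plastid genes have medians of -1.11 and -0.98 and lie around it.

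Nuclear genes of photosynthesis fell. All 7 measured genes in the list of photosystems and antennae fell, against a background of 5.33% of loci, with a median of -3.56. The list does not hold every such gene on the array, as AT1G51400 below shows. PSAN, a subunit of photosystem I that faces plastocyanin, stood at 11.91 and 11.42 without ABA and at 8.01 and 5.84 with it, a change of -4.74 ± 0.41 and 26.8-fold lower (limma, adjusted p = 0.00085). LHCB4.1 and LHCB4.2, minor antenna proteins of photosystem II, went from 13.09 and 12.45 to 10.71 and 7.57 and from 12.53 and 11.49 to 10.59 and 6.2. In all 3 genes the values without ABA exceeded those with it, and the second array on ABA was the lowest. PSAE-1 changed by -3.56 ± 0.42, PSBY by -2.68 ± 0.29, PSBW by -2.65 ± 0.36 and LHCB4.3 by -1.92 ± 0.30. Without the block the call of PSAN alone was kept.

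The 3 measured genes in the list of the nuclear Calvin cycle fell too. RCA, the activase of Rubisco, stood at 13.23 and 12.66 without ABA and at 10.56 and 7.24 with it, a change of -4.04 ± 0.55. PRK, phosphoribulokinase, went from 10.97 and 11.03 to 8.33 and 6.52. SBPASE, sedoheptulose-bisphosphatase, went from 10.85 and 10.81 to 8.47 and 8.04, so the arrays on ABA differed least for SBPASE and most for RCA. PRK and SBPASE were also called without the block, and RCA was not (adjusted p = 0.16). ATPC1, the gamma subunit of the chloroplast ATP synthase, fell by 1.66 ± 0.21. It was the only 1 of 3 listed nuclear genes of electron transport and ATP synthase to pass. Its sister gene ATPC2 differed by 0.39 ± 0.15 and PGRL1B, of cyclic electron flow, by -0.46 ± 0.17. Of 3 genes listed with photorespiration 2 fell. HPR, hydroxypyruvate reductase, changed by -2.76 ± 0.27 and LrgB, the glycolate and glycerate transporter, by -2.51 ± 0.33. The other, GLDH (AT3G47930), encodes a dehydrogenase of ascorbate synthesis and is not a photorespiration gene. It differed by 0.41 ± 0.15 and did not pass. Of HPR and LrgB neither was called without the block, and 1 was without the second array on ABA.

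Genes that make chlorophyll and its precursors fell in 5 of 9 cases, with a median of -1.29 and 0 rises. The median was -0.55 within number 1 and -1.44 within number 2, and -0.59 without the second array without ABA. CHLM, a methyltransferase of the magnesium branch, went from 10.91 and 10.93 to 9.25 and 8.66. CHLI2, a subunit of magnesium chelatase, changed by -1.44 ± 0.18, and HEME1 and HEME2, the uroporphyrinogen decarboxylases, by -1.43 ± 0.16 and -1.29 ± 0.18. HEMB1, which acts earlier in the pathway, changed by -0.74 ± 0.17. Each of these differences had the same sign within both numbers, whereas PORB, a protochlorophyllide reductase, stood at 9.38 and 11.14 without ABA and at 9.44 and 7.23 with it. PORB thus changed by 0.06 within number 1 and by -3.92 within number 2, and did not pass (adjusted p = 0.17). Without the block, or without the second array on ABA, 3 of the 9 were called.

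Called genes of the NDH complex and thioredoxins fell, and antioxidant genes moved in both directions. Of 8 nuclear genes of the NDH complex, which carries cyclic electron flow, 4 fell, among them NdhL (-1.89 ± 0.36), CRR42 (-1.58 ± 0.14), NdhS (-1.53 ± 0.19) and NdhN (-1.50 ± 0.20), and the other 4, all named as CRR factors, lay between -0.47 and -0.10. Of 8 thioredoxin genes 5 fell, led by NTRC, a plastid reductase joined to a thioredoxin (-1.78 ± 0.27), and ty2, a y-type plastid thioredoxin (-1.55 ± 0.22), with TRXF2 at -1.0 ± 0.21 and THX at -1.0 ± 0.18. Of 8 antioxidant genes 2 rose and 3 fell, with a median of 0.11. MSRB6, a methionine sulfoxide reductase, went from 9.08 and 8.82 to 6.36 and 5.28, an 8.75-fold fall. TAPX, the ascorbate peroxidase of thylakoids, changed by -1.84 ± 0.15 and MSRB9 by -1.79 ± 0.22, while MSRB5 and PRXIIF, the peroxiredoxin of mitochondria, rose by 1.09 ± 0.25 and 0.96 ± 0.14. Without the block 3 NDH genes, 1 thioredoxin gene and MSRB6 were called. Without the second array on ABA 2, 0 and 3 of these NDH, thioredoxin and antioxidant genes were called, and the thioredoxin count was 3 without the first array without ABA and 2 without the first on ABA.

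**Figure D4:**
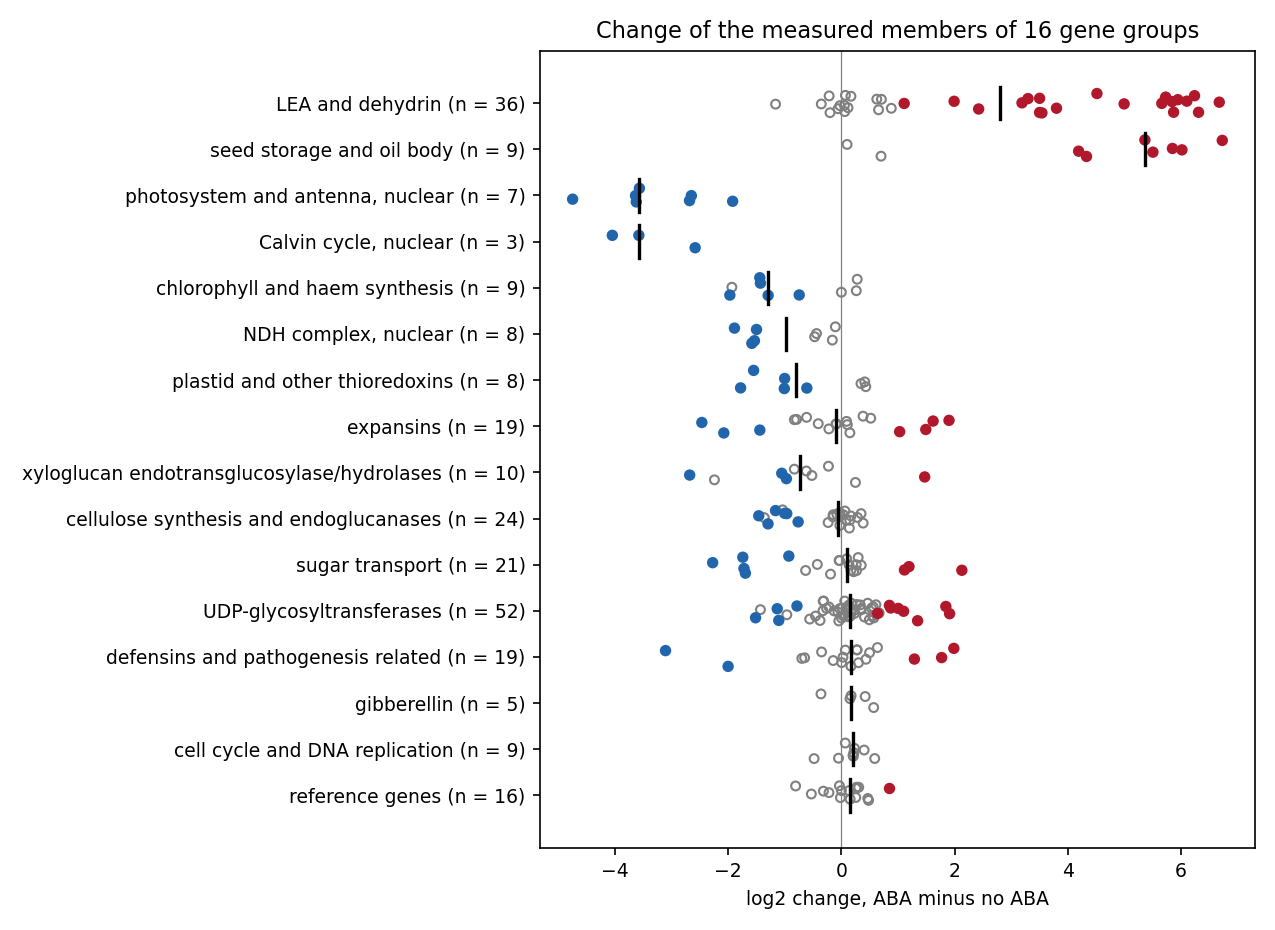
Log2 change with ABA of each measured member of 16 gene groups, 1 point per locus. Filled points were called higher (red) or lower (blue), open ones were not called, and the black bar is the group's median. LEA (median 2.81) and storage genes (5.36) lie to the right, nuclear photosystem (-3.56) and Calvin cycle genes (-3.57) to the left, and expansins, sugar transporters and UDP-glycosyltransferases have called members on both sides.

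Most genes of the plastid genome were lower with ABA. Of 69 measured genes of the plastid genome 36 fell and 0 rose, and 67 had a change below 0, with a median of -0.99. That median was -1.11 within number 1 and -0.98 within number 2, where the nuclear photosystem genes had -2.25 and -4.55. The groups did not overlap in 28 of the 69, beside 32.7% of all probe sets, and plastid genes also differed strongly between numbers. Without ABA the second array was higher than the first by a median of 0.74, and with ABA by 0.79. The ribosomal protein gene rpl16 shows it, at 5.44 and 10.46 without ABA and at 4.38 and 8.18 with it. Without the block 0 of the 69 were called, while limma's unadjusted p without the block lay below 0.05 for 15 of them. Without the second array on ABA 10 of 47 photosynthesis genes and 3 of 22 other plastid genes were called, against 26 and 10 in the fit with all arrays, and without the first array on ABA 4 of the 22 were.

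Plastid genes are given here by class and by transcription unit, groups taken with their values in view, and differences between classes or units were not tested. The ATP synthase genes atpE and atpB, which share a transcript, stood at 11.05 and 12.79 and at 11.25 and 12.75 without ABA, and at 8.69 and 10.91 and at 8.83 and 11.23 with it. Their changes were -2.12 ± 0.21 and -1.97 ± 0.26. Photosystem I genes had a median of -1.47, with psaB, a core subunit, at -2.0 ± 0.22 and psaI at -1.63 ± 0.15. All 4 genes of the unit psaI-ycf4-cemA-petA and all 3 of psbD-psbC-psbZ were called lower. Ribosomal protein genes had a median of -1.0, led by rps4 at -1.69 ± 0.22, and rbcL, the large subunit of Rubisco, changed by -1.40 ± 0.18. Of the others, atpH changed by -1.68 ± 0.25, rps15 by -1.53 ± 0.25 and rpl14 by -1.30 ± 0.20.

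Other plastid genes did not pass. The unit psbE-psbF-psbL-psbJ, which encodes cytochrome b559 and small photosystem II subunits, had a median of -0.15 and 0 of 4 called by limma, also at an unadjusted p below 0.05. psbE stood at 11.38 and 9.52 without ABA and at 10.84 and 9.92 with it, so the first array of each group was higher, the reverse of rpl16. The 4 subunit genes of the plastid RNA polymerase had changes from -0.73 to 0.01 and 0 called by limma, with 1 at an unadjusted p below 0.05. Photosystem II genes as a class had 5 of 15 called, with a median of -0.84.

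**Figure D5:**
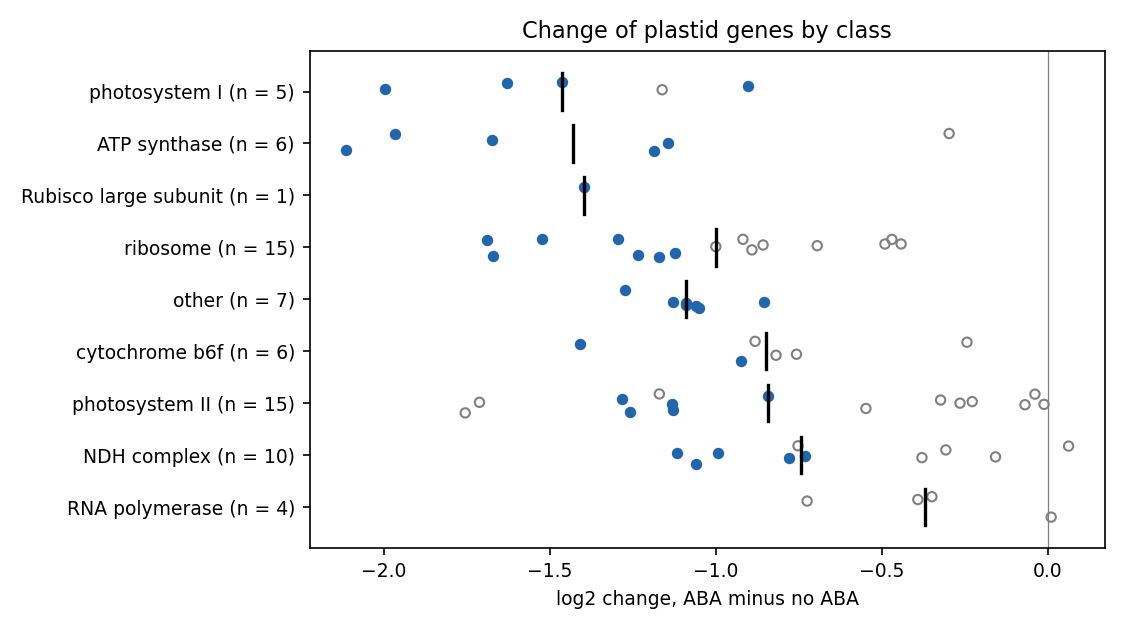
Log2 change with ABA of the 69 measured plastid genes by class, 1 point per gene. Filled blue points were called lower, open points were not called, and the black bar is the median of the class. Medians run from -1.47 for photosystem I and -1.43 for ATP synthase to -0.37 for RNA polymerase.

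Of 16 measured genes of the mitochondrial genome 1 rose and 0 fell, beside 5.71% and 5.33% of all loci, with a median of 0.00. The gene that rose was nad1, a subunit of respiratory complex I, at 4.90 and 5.64 without ABA and 6.25 and 6.37 with it, a change of 1.04 ± 0.19 (limma, adjusted p = 0.013). It was not called without either array on ABA.

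Among the largest falls were also genes outside the lists above. AT3G05730, which encodes a defensin-like protein, stood at 10.54 and 8.89 without ABA and at 4.87 and 4.37 with it, a change of -5.10 ± 0.38. AT1G52070, a jacalin-type lectin, went from 7.82 and 7.66 to 4.21 and 3.82. AT1G51400, a small photosystem II protein that carries no symbol here and is not counted in the photosystem list, changed by -3.82 ± 0.35, the rhodanese AT2G42220 by -3.66 ± 0.36 and the lipid-transfer-like AT5G48490 by -3.64 ± 0.36. AT4G38080, AT1G29670, AT1G21500 and AT4G17245, which carry no symbol here, had changes between -3.59 and -3.50. Among rises without a symbol were AT5G07330 (5.95 ± 0.37) and AT5G66780 (5.92 ± 0.37). The largest rise and fall of all belonged to probe sets with no gene in the tables used here, one going from 5.21 and 5.68 without ABA to 12.38 and 13.17 with it, and the other from 12.50 and 10.83 to 8.46 and 4.34. Of 61 loci that rose by at least 3, 18 were in the LEA group and 7 in the storage group, and of 22 that fell by at least 3, 4 were in the photosystem and antenna list, which leaves out AT1G51400, and 2 in the Calvin cycle list.

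Cell wall genes moved in both directions. Of 19 expansin genes, whose products loosen walls, 4 rose and 3 fell, with a median of -0.09. EXPA15 stood at 7.96 and 7.46 without ABA and at 9.52 and 9.15 with it, a change of 1.62 ± 0.16. EXPA20 went from 6.93 and 7.46 to 9.45 and 8.75. EXPB3 and EXPA8 went from 9.59 and 7.67 to 6.97 and 5.37 and from 9.61 and 7.74 to 6.80 and 6.40. EXPB3 and EXPA8 were also higher on the first array without ABA than on the second. Without the block limma called 0 of the 19, with 8 at an unadjusted p below 0.05, and without the second array on ABA it called 1.

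Among the 10 xyloglucan endotransglucosylase/hydrolases, which cut and rejoin wall xyloglucan, 1 rose and 3 fell, with a median of -0.72. XTH18 went from 7.93 and 9.01 to 6.04 and 5.54, a change of -2.68 ± 0.34, and XTH16 from 8.87 and 9.58 to 10.45 and 10.95, a change of 1.47 ± 0.20. XTH26 and XTH33 changed by -1.05 ± 0.26 and -0.97 ± 0.15. XTH32 differed by -0.66 within number 1 and by -3.81 within number 2 and did not pass (adjusted p = 0.068). The count of called genes was 1 without the block or without the second array on ABA, and 7 without the first array without ABA.

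Called genes in the list of cellulose synthesis and endoglucanases, which also holds the xyloglucan synthase CSLC04, fell. Other wall genes moved in both directions. Of 24 genes of cellulose synthesis and GH9 endoglucanases 6 fell and 0 rose, with a median of -0.05: GH9B8 changed by -1.46 ± 0.34, CSLC04, a xyloglucan backbone synthase, by -1.29 ± 0.16, CSLA03 by -1.16 ± 0.19 and COB, which orients cellulose in roots, by -1.0 ± 0.21. Of 23 TBL genes, a family of wall acetyltransferases, 3 fell and 1 rose, beside 5.33% and 5.71% of all loci. Changes were -2.22 ± 0.28 for TBL45, -1.60 ± 0.20 for TBL25, -0.90 ± 0.20 for TBL28 and 1.25 ± 0.24 for TBL39. Of 5 pectin modifying enzymes PMEPCRF fell, by 1.37 ± 0.29, and the others, ATPMEPCRB (-1.03 ± 0.54), ATPMEPCRD (-1.02 ± 0.48), AT4G02300 (0.27 ± 0.15) and PME61 (0.38 ± 0.17), did not pass. SBT4.12, a subtilase, went from 7.29 and 7.26 to 4.74 and 3.92, a 7.69-fold fall (limma, adjusted p = 0.00042, or 0.012 without the block). ATSBT5.2 also fell, by 1.04 ± 0.19, while ARA12, the subtilase of seed coat mucilage, and SBT1.3 rose by 0.99 ± 0.20 and 0.71 ± 0.16. RALFL31 and RALFL24, genes for RALF signalling peptides, changed by -1.23 ± 0.24 and -0.93 ± 0.19. Of the genes in this paragraph only SBT4.12 was called without the block. Without the second array on ABA 1 of the 24 cellulose genes and 2 of the 23 TBL genes were called, and without the second array without ABA 3 of the 24. Of 11 RALF genes 5 were called without the first array without ABA, 1 without the second and 0 without the second on ABA, and of 11 subtilases 1 without either array on ABA and 2 without the second array without ABA. Of the pectin genes 2 were called without the first array without ABA and 0 without the second on ABA.

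Sugar transporters also split. TMT2, a sugar carrier of the vacuole membrane, had the tightest values: 7.56 and 7.67 without ABA, and 9.69 and 9.80 with it. Its change was 2.13 within each number (± 0.14; limma, adjusted p = 0.00027, or 0.0048 without the block). SWEET17, a vacuolar fructose carrier, went from 7.53 and 4.99 to 4.68 and 3.3, and SWEET2 from 7.64 and 5.97 to 5.81 and 4.33. In both SWEET genes number 1 exceeded number 2 in either group, and the lowest value without ABA lay just above the highest with it. In all 3 of 21 rose and 5 fell, with SFP1 at -1.72 ± 0.43 and a median of 0.10. TMT2 alone was called without the block or without the second array on ABA, and 5 of the 21 were called without the first array without ABA, without the first on ABA or without either ahg1-1 array.

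Families of secondary metabolism, detoxification and defence had few called members or moved in both directions. Of 52 UDP-glycosyltransferases 8 rose and 4 fell: UGT73B4 went from 4.43 and 5.0 to 5.71 and 7.54, UGT76E12 from 4.14 and 4.17 to 5.12 and 6.88, UGT84A3 from 5.84 and 5.50 to 7.02 and 7.01, and UGT88A1 from 9.91 and 9.24 to 8.91 and 7.22. Of 24 cytochrome P450 genes 1 was called, CYP718 at -0.69 ± 0.16, against 11.0% called over all loci. ALDH7B4 and ALDH10A8, aldehyde dehydrogenases of stress tolerance, rose by 1.05 ± 0.18 and 0.95 ± 0.18, and GSTU18 and GSTL3, glutathione transferases, fell by 1.51 and 1.32. THI2.2, a thionin, went from 8.79 and 8.61 to 6.85 and 6.55, a change of -2.0 ± 0.15. The defensin genes LCR67 and PDF2.1 rose by 1.99 ± 0.39 and 1.77 ± 0.20. OSM34, an osmotin-like protein, had 8.5 and 5.65 without ABA and 3.87 and 4.07 with it, a change of -4.63 within number 1 and -1.58 within number 2. Without the second array on ABA 1 of the 52 glycosyltransferases, 0 of the 24 P450 genes, 0 aldehyde dehydrogenases and 0 glutathione transferases were called by limma, and 2 of 19 defensin and pathogenesis-related genes, against 5 with all arrays. The aldehyde dehydrogenase count was 6 without the first array without ABA and 1 without the first on ABA.

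Of genes of other hormones, 4 of 16 for auxin passed the test, against 11.0% of all loci, and none of those measured for gibberellin, cytokinin, ethylene (3) or brassinosteroid (2). GID1A, GID1B and GID1C, which encode receptors of gibberellin, differed by 0.57 ± 0.19, -0.36 ± 0.25 and 0.17 ± 0.21, and 0 of 5 gibberellin genes and 0 of 6 cytokinin genes passed (limma, lowest adjusted p = 0.094 and 0.23), with 2 and 0 at an unadjusted p below 0.05, and 1 of the ethylene and 0 of the brassinosteroid genes had such a p. Among 16 auxin genes 3 fell and 1 rose. GH3.3 and GH3.17, which join auxin to amino acids, went from 7.76 and 7.67 to 6.70 and 5.08 and from 7.56 and 8.21 to 6.60 and 5.64. IAA18, an auxin response repressor, changed by -0.97 ± 0.16 and YUC4, of auxin synthesis, by 0.65 ± 0.15. Limma called none of the 16 without the block, with 4 at an unadjusted p below 0.05, none without the second array on ABA, and 1 without the second array without ABA.

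None of 3 genes of oil breakdown or 9 of cell division was called, beside 11.0% of all loci. Lists this small cannot show a difference from that share. ICL, isocitrate lyase of the glyoxylate cycle, stood at 12.57 and 13.40 without ABA and at 13.72 and 13.18 with it. SDP1, the lipase that starts oil breakdown, and AIM1, of fatty acid beta-oxidation, differed by 0.55 ± 0.21 and 0.32 ± 0.15. Of these 3 genes limma called 0, with 1 at an unadjusted p below 0.05, and 2 without the second array without ABA. Of 9 genes of the cell cycle and DNA replication 0 passed, with 3 at an unadjusted p below 0.05 and changes from -0.48 (AUR1, a mitotic kinase) to 0.59.

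Autophagy genes of the ATG8 family, which tag membranes for breakdown, split within the family. ATG8E went from 6.97 and 6.26 to 5.11 and 4.21, a change of -1.96 ± 0.20, ATG8F changed by -0.88 ± 0.15 and ATG8G by 0.71 ± 0.15, and the rest did not pass. Limma called none without the block, with 3 at an unadjusted p below 0.05, and 1 without the second array on ABA.

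Of the other lists, 29 serine carboxypeptidase-like genes had 4 rises and 1 fall, beside 5.71% and 5.33% of all loci. Among them scpl35 went from 9.02 and 10.12 to 11.50 and 11.46, a change of 1.91 ± 0.29. The genes scpl20, scpl29 and SCPL49 rose by 1.23 ± 0.19, 1.08 ± 0.20 and 0.89 ± 0.19. Among 12 genes of nitrogen transport and assimilation AT2G26690 changed by -2.54 ± 0.56, AT3G21670 by -1.48 ± 0.18 and AT3G25260 by 0.75 ± 0.16. BCAT4, an aminotransferase of glucosinolate synthesis, went from 9.36 and 7.21 to 6.97 and 5.03, a change of -2.28 ± 0.49, and was the only 1 of 4 genes of that list to pass. Of the class III peroxidases AT5G66390 changed by -2.68 ± 0.67 and PRX52 by 1.11 ± 0.17. LSM3A and LSM3B, of RNA-binding complexes, rose by 0.99 ± 0.20 and 0.95 ± 0.25. In the transcription factor lists 1 of 2 homeodomain, 1 of 3 MYB and 2 of 7 WRKY genes were called, beside 11.0% of all loci. None of 8 bHLH, 6 AP2/ERF and 1 NAC genes was called. Lists this small cannot show a difference from that share. HAT2, a homeodomain factor, changed by -1.16 ± 0.20 and AT5G47390, of the MYB list, by -0.99 ± 0.18. WRKY47 changed by -0.89 ± 0.20 and WRKY22 by 0.59 ± 0.14. ACT11, an actin, and CML42, a calmodulin-like protein, changed by -0.66 ± 0.16 and -0.64 ± 0.17. They were the only genes called of 9 tubulins and actins and of 11 genes of ion transport and calcium sensors. None of the genes in this paragraph was called by limma without the block, where 6 of the 29 carboxypeptidases and 3 of the 12 nitrogen genes had an unadjusted p below 0.05, and without the second array on ABA 1 of the carboxypeptidases and 1 of the nitrogen genes was called.

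Markers of seed and seedling tissues were examined beside these groups. DFR, a flavonoid gene listed with the seed coat, had 7.91 and 10.02 without ABA and 7.64 and 5.34 with it (adjusted p = 0.11), and BAN, of the seed coat, 6.29 and 5.33 against 6.23 and 5.77. UGT80B1 and AT3G50990, also listed with the seed coat, differed by 0.61 ± 0.17 and 0.02 ± 0.15. The root hair expansins EXPA7 and EXPA18 changed by 0.83 and 0.72 within number 1 and by -2.06 and -2.30 within number 2. PYK10, of root tissue, stood between 12.74 and 13.34 on all 4 arrays, and the endosperm marker AGL62 between 3.05 and 3.19, below the 20th percentile of each array. None of the measured markers passed, beside 11.0% called over all loci. They were 1 of endosperm, 4 of the seed coat, 2 of root hairs, 1 of root tissue and 6 listed with leaf epidermis. Of these 6, FDH (AT5G14780) encodes formate dehydrogenase and is not an epidermis marker. Of the seed coat genes 2 had an unadjusted limma p below 0.05. The part of the markers in the changes above was not tested. Of 16 reference genes 1 was called, UBC28, a ubiquitin-conjugating enzyme, at 0.84 ± 0.16.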

How the data were processed

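RNA of germinating seedlings was hybridised to 1 array per sample, in 4 groups of 2 arrays. The deposited values are log2 expression after RMA, per the submitters' processing notes; the RMA version is not given in the sources used here. Nothing in the labels says whether replicate arrays stem from separate cultures. P-values and SE therefore measure only the spread left between the arrays of the series, mutants included, once the number is fitted. They do not measure the spread of the wild-type pairs alone. The labels' descriptions repeat the untreated wording for all samples, and groups were taken from the titles.

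The log2 values the authors deposited were fitted with limma 3.58.1 in R 4.3.3 (lmFit, eBayes) over 22246 probe sets and all 8 arrays, with group means and the replicate number as a block, which leaves 3 residual degrees of freedom. The contrast was wild type with ABA minus without, with Benjamini-Hochberg adjustment over all probe sets and calls at 0.05. Deviations of same-numbered arrays from their group means correlated at 0.50 to 0.84 over the 6 pairs of groups. Wild type without ABA correlated at 0.61 with wild type on ABA, 0.50 with ahg1-1 and 0.66 with ahg3-1. Among the groups on ABA, wild type correlated at 0.81 with ahg1-1 and 0.84 with ahg3-1, and the mutants at 0.81 with each other. With 2 arrays a group, their number limits the precision. Of the probe sets, 12998 matched 1 gene of the annotation tables, 74 1 locus outside them, 503 several genes and 8671 none. Where a locus had several probe sets, lists use that with the highest mean over all arrays. Python 3.11.15 and pandas 2.3.3 made the tables.

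The rule for named genes took the 15 genes with the largest change per direction among called, non-overlapping probe sets of 1 gene, up to 4 called members per list (with none called, those of smallest p) and every member of lists of 5 or fewer. Members it took that did not pass are in part given only as counts. Other genes, the probe sets without a gene and the plastid classes were added with their values in view. The members and lists were chosen with earlier results of these data known. Alternatives were fits without the block, with the 4 wild-type arrays only, without dim probe sets, after cyclic loess or median centring, with trend and robust moderation, with a size threshold, and without each array.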

Additional observations from a re-analysis of the deposited data

How the results depend on the processing

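Without the replicate block 305 probe sets were called, 154 higher and 151 lower. With only the 4 wild-type arrays there were 845 (346 and 499) with the block and 33 (32 and 1) with no block, and with a log2 change of at least 1 there were 1542 (597 and 945). Leaving out 1 array gave 623 to 3372 calls, 262 to 1376 higher and 361 to 1996 lower. Of 677 loci in the gene lists 200 were called, against 47 without the block, 103 and 11 with the wild-type arrays only, and 79 to 228 without 1 array. Loess, centring, trend and robust moderation and the dim filter kept the count of calls between 2646 and 2794, and loess gave 938 higher and 1708 lower. Only loess, centring and leaving out 1 wild-type array can move an estimate, so the other fits could not reverse a direction. None of 162 called genes traced through the alternatives changed direction, 50 stayed called without the block and 79 without the second array on ABA. Genes that did not pass and changed direction without 1 array, with their ranges, were psbF (-0.80 to 0.34), psbE (-0.95 to 0.81), psbJ (-0.30 to 0.27), psbL (-0.56 to 0.025), CP1 (-0.30 to 1.14), GID1C (-0.10 to 0.45), GID1B (-0.78 to 0.066), ICL (-0.078 to 1.02), PYK10 (-0.34 to 0.12), EXPA7 (-1.72 to 0.50), EXPA18 (-1.85 to 0.27), AT1G54410 (-0.43 to 1.85), BAN (-0.15 to 0.54), AT5G18970 (-0.30 to 0.47), AT3G50990 (-0.050 to 0.091), ATPMEPCRB (-2.13 to 0.076), AT1G29520 (-0.82 to 0.066) and AGL62 (-0.014 to 0.051, and -0.0046 after loess). This list covers only genes traced through the alternatives. HRGP1 (-1.18) and NAC014 (0.11), which also did not pass, changed direction without the second array without ABA, to 0.29 and -0.12. The cause of these changes of direction was not tested. The planned promoter motif shares were not run, because promoter sequences were not used here. With 2 arrays a group the number of arrays limits the precision.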
